A study of Homo sapiens with 18 samples.

Results

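Hedgehog signaling in the melanoma cells was described here through 9 genes, namely the receptor gene PTCH1, the signal transducer SMO, the transcription factor genes GLI1, GLI2 and GLI3, their inhibitor SUFU, the ligand-binding genes HHIP and GAS1, and the related zinc finger gene GLIS3. The 9 genes were taken by name from the 58870 genes of the count table. RNA-seq had been done on the human melanoma cell lines WM164, SKMEL28 and A375, each overexpressing either MAFG or, as the control, GFP, with 3 replicate libraries for each of the 6 conditions, which makes 18. By the study's methods, the cells had been transduced with lentivirus carrying a Myc-DDK-tagged MAFG or GFP and were grown in medium with serum, so that the controls too carry a vector. MAFG is a small MAF transcription factor that binds DNA as a dimer. WM164 and SKMEL28 are described by the study as melanocytic lines with high MITF and low AXL, and A375 as a dedifferentiated line with the opposite pattern. The question was how these genes respond to MAFG, and whether the lines differ in that response.

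In the canonical pathway, PTCH1 holds SMO inactive until a Hedgehog ligand binds PTCH1. Active SMO then acts in the primary cilium, where it relieves the GLI proteins of SUFU and of the processing that turns GLI3, and to a lesser degree GLI2, into repressors. GLI1, PTCH1 and HHIP are themselves transcribed in response to active GLI proteins in many cell types and serve as readouts of the pathway. None of these steps was measured here, since RNA levels do not show cleavage, localization or activity of the proteins.

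PTCH1 and GLI2 were the members that passed the test of MAFG against GFP in both melanocytic lines. In SKMEL28, GLI2 had enough counts for the test only with MAFG, so that call adds no support of its own. The sequences around a transcript start are shown for PTCH1 and GLI2, from RefSeq on GRCh38.p14. They run from 250 bases before to 50 bases after the start, with matches to the motifs searched in capitals. For PTCH1, which has 5 such windows, the window shown is chr9:95509217-95509516 on the minus strand. For GLI2, which has 2, it is chr2:120792031-120792330 on the plus strand. For each gene the window shown is the one with the most matches, so it is not typical of the others. The upstream end of the annotated gene lies in other windows. These are window 2 of PTCH1 (chr9:95516922-95517221), with TGCTGA at position 21, and window 1 of GLI2 (chr2:120735618-120735917), without a match.
PTCH1, window 1: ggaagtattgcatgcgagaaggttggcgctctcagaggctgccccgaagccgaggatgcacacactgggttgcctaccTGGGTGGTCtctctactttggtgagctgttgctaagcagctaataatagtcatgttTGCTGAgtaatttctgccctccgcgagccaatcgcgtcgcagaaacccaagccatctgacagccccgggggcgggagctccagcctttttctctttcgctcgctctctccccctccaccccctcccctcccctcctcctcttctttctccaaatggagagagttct
GLI2, window 2: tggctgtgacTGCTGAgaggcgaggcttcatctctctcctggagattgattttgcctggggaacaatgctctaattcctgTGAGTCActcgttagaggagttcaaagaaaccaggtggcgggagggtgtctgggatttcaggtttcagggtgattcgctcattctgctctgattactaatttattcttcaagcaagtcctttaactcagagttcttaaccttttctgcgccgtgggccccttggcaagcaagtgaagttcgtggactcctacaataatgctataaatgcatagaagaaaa
The capitals in the PTCH1 window mark TGGGTGGTC, the reverse complement of the GLI binding site GACCACCCA, starting at position -172 from the transcript start, and TGCTGA, the core of the MAF recognition element, at position -116. The capitals in the GLI2 window mark TGCTGA at position -240 and TGAGTCA, an AP-1 site of the form TGANTCA, at position -170. Motifs were searched on both strands, and the AP-1 and MAF motifs can overlap each other. The GLI site was in 0.236% of the 35116 human promoter windows of this length, TGCTGA in 17.3%, TGANTCA in 7.71%, the E-box CACGTG in 7.26% and the E-box CATGTG in 11.1%. Of 13 windows found for 7 members, TGCTGA was in 6 windows of 5 members, the GLI site in 1, TGANTCA in 1, CATGTG in 1 and CACGTG in 0. A match describes the letters of a window and does not show binding. GLI1 and GLI3 were not in the promoter table.

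The labels were first checked against MAFG itself. MAFG had 582 to 868 reads in the WM164 control libraries and 1500 to 1600 with MAFG (edgeR, log2 fold change 1.04 with an adjusted p of 6.37e-08). In SKMEL28 the log2 fold change was 0.64 (adjusted p = 1.28e-04, edgeR). In A375, MAFG had 905 to 1173 reads with GFP and 1627 to 2227 with MAFG, so that the groups did not overlap, but the log2 fold change of 0.80 did not pass (adjusted p = 0.0655, edgeR). On the deposited TPM the difference in MAFG was larger, and the groups did not overlap in any line. Its TPM was 2.50 to 3.51 with GFP and 20.9 to 27.5 with MAFG in WM164, 3.23 to 4.43 and 14.1 to 19.4 in SKMEL28, and 3.94 to 4.52 and 22.4 to 28.2 in A375. TYR, the key enzyme of melanin synthesis, had 3488 to 4612 reads in the WM164 and 3501 to 5176 in the SKMEL28 controls and 0 in all 6 A375 libraries, and AXL had 22808 to 23773 reads in the A375 controls against at most 123 in the controls of the other lines. With MAFG, AXL had 777 to 936 reads in WM164 and 628 to 665 in SKMEL28. Depth, the sum of counts, ranged from 20122172 to 39025042 reads per library. Differences between replicates exceeded sampling noise in every pair, with a mean chi-square per gene, which sampling alone would put near 1, of 5.90 to 30.2 in all pairs but those of the first A375 MAFG library. That library stood apart from its replicates, with 68.7 and 96.7. Without it, 393 instead of 133 genes passed in A375 but still 0 members. The differences of response from A375 given below for PTCH1 then became 1.01 for WM164 and 0.85 for SKMEL28, and the same numbers of members passed in each. Adjusted p-values below are edgeR's (quasi-likelihood F test), adjusted by Benjamini-Hochberg over all genes tested. A gene passed at 0.05 or less, and was called differentially expressed if its log2 fold change was also above 1 or below -1. The labels do not say whether replicates came from separate cultures, so that p-values measure the spread between libraries, which may be technical.

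Among all genes tested in WM164, 16.2% passed with higher and 15.6% with lower values under MAFG, 6.94% were differentially expressed, and the 3 MAFG libraries did not overlap the 3 control libraries for 43.4%. In SKMEL28, 14.6% passed higher and 15.3% lower, 4.74% were differentially expressed and 43% did not overlap. In A375, 0.78% passed higher and 0.0634% lower, 0.665% were differentially expressed and 12.3% did not overlap. Of the 7 members tested in WM164, 2 passed higher (PTCH1, GLI2) and 2 lower (SMO, GLI3), 2 were differentially expressed, and 4 did not overlap. Of the 7 tested in SKMEL28, 2 passed higher (PTCH1, GLI2) and 0 lower, 1 was differentially expressed (GLI2), and 4 did not overlap (PTCH1, SMO, GLI2, GAS1). In SKMEL28, GLI2 had enough counts to be tested only in its MAFG libraries. Of the 7 tested in A375, 0 passed, with 0 at an unadjusted p under 0.05 and 0 under DESeq2, and 1 did not overlap (GLI3). For WM164, SKMEL28 and A375, the median log2 fold change of the tested members was -0.01, 0.16 and 0.08, beside medians over all genes tested of -0.00153, -0.00800 and -0.000372. HHIP in all 3 lines, GLIS3 in WM164 and SKMEL28, and GLI1 in A375 had too few counts to be tested. On the deposited TPM values, the median of all genes shifted to 0.14 in WM164, -0.14 in SKMEL28 and -0.10 in A375 (log2(TPM + 1)). The genes that passed then split into 1558 higher and 360 lower in WM164 and 470 higher and 2105 lower in SKMEL28, against 2580 and 2485 in WM164 and 2265 and 2375 in SKMEL28 on counts.

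**Figure D1:**
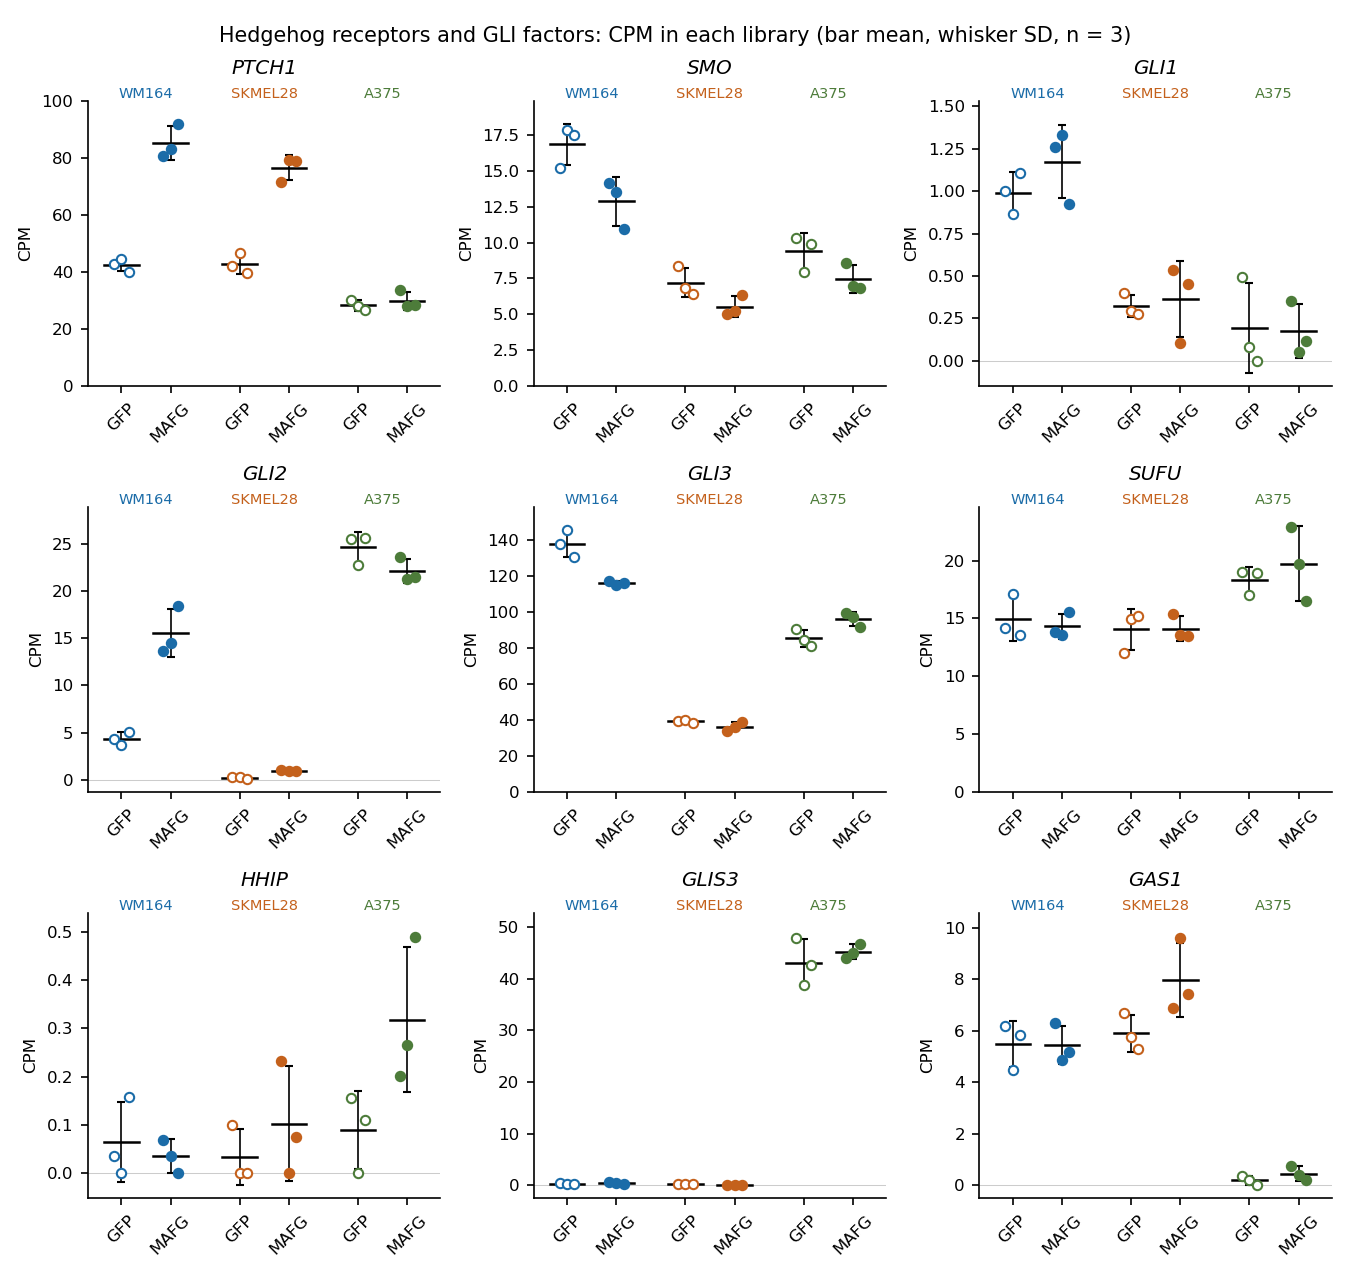
CPM (counts scaled to library size, y axis from 0 or just below) of each of the 9 genes in every library by line and condition (x axis). Open points are GFP and filled points MAFG libraries, bars are means and whiskers SDs of 3 libraries. PTCH1 and GLI2 are higher with MAFG in WM164 and SKMEL28, GLIS3 is at 38.9 to 47.9 CPM only in A375, and GAS1 is near 0 in A375.

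PTCH1, the receptor that holds SMO in check and a readout of GLI activity, was about doubled in level by MAFG in WM164. The gene lies on chromosome 9 from 95442980 to 95517057 of GRCh38. PTCH1 was at 42.7, 44.6 and 40.0 CPM (counts scaled to library size, with TMM factors from all libraries) in the WM164 controls and at 80.6, 82.9 and 92.0 with MAFG. In SKMEL28, PTCH1 was at 42.1, 46.6 and 39.4 CPM with GFP and at 71.5, 79.3 and 78.8 with MAFG. In both lines every MAFG library was above every control library. The means were 85.2 ± 6.05 and 42.4 ± 2.28 CPM in WM164 and 76.5 ± 4.36 and 42.7 ± 3.63 in SKMEL28 (SD, n = 3). The log2 fold change of PTCH1 was 1.004 in WM164 (standard error 0.07, 95% interval 0.86 to 1.15, adjusted p = 3.08e-09) and 0.85 in SKMEL28 (standard error 0.07, interval 0.69 to 0.998, adjusted p = 3.69e-07). It lay on the limit of 1 in WM164, and was under it without GFP library 3 (0.96), without MAFG library 3 (0.94), without a count filter and on the log2(TPM + 1) scale. In A375, PTCH1 was at 30.2, 27.9 and 26.4 CPM with GFP and at 33.5, 27.8 and 28.2 with MAFG, groups that overlapped, with a log2 fold change of 0.08 (interval -0.18 to 0.33, adjusted p = 0.997). A lncRNA gene on the opposite strand, ENSG00000271155, covers 4.11% of the exonic bases of PTCH1, and its reads could not be told apart if strand was not used in counting.

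SMO, the transmembrane protein that PTCH1 inhibits, went the other way by a smaller amount. The gene lies on chromosome 7 from 129188633 to 129213545. SMO was at 15.2, 17.8 and 17.5 CPM in the WM164 controls and at 14.2, 13.5 and 10.9 with MAFG, with no overlap and a log2 fold change of -0.39 (adjusted p = 0.0124, standard error 0.11). The call was lost without MAFG library 3 (-0.29, adjusted p = 0.0594), in a model of all 18 libraries (adjusted p = 0.0890) and on TPM. In SKMEL28, SMO was at 8.36, 6.79 and 6.42 CPM with GFP and at 5.04, 5.20 and 6.34 with MAFG. These groups did not overlap either, but the log2 fold change of -0.38 did not pass (interval -0.74 to -0.03, adjusted p = 0.1004). In A375, where the groups overlapped, the log2 fold change was -0.34 (interval -0.71 to 0.03, adjusted p = 0.873). The point estimates in the 3 lines were thus close to each other, and none of the 3 differences of response between lines passed. The lncRNA gene ENSG00000243230 shares 2.72% of the exonic bases of SMO on the opposite strand.

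GLI2, the main activating GLI factor of the primary response to Hedgehog ligands, had the largest log2 fold change of the members that passed. It lies on chromosome 2 from 120735623 to 120992653. GLI2 was at 4.36, 3.72 and 5.02 CPM in the WM164 controls and at 13.7, 14.5 and 18.4 with MAFG. These were 112 to 127 reads against 391 to 597, without overlap, and the log2 fold change was 1.84 (standard error 0.15, interval 1.53 to 2.15, adjusted p = 2.12e-08). The TPM of GLI2 in WM164 was 0.32, 0.37 and 0.43 with GFP and 1.56, 3.32 and 2.90 with MAFG, and the change passed on that scale too.

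In SKMEL28, GLI2 was near the lower end of detection. It had 7, 6 and 1 reads with GFP and 30, 24 and 24 with MAFG, again without overlap. Only the MAFG libraries held enough reads for the test in this line, so GLI2 was tested there only because it was high with MAFG. The log2 fold change of 2.32 was differentially expressed with a wide interval (standard error 0.63, interval 0.98 to 3.66, adjusted p = 0.0107). Without GFP library 3, which held the single read, it was 1.805 (adjusted p = 0.0479). The deposited TPM of GLI2 in SKMEL28 gave another picture, with 0.13, 0.58 and 0.00 with GFP and 0.23, 0.26 and 0.09 with MAFG. These TPM values overlapped and had a lower mean with MAFG, 0.193 against 0.237, so that the difference in SKMEL28 rests on the counts alone. In A375, GLI2 had 839 to 983 reads with GFP and 803 to 935 with MAFG, with a log2 fold change of -0.16 (interval -0.41 to 0.09, adjusted p = 0.997). Its TPM in A375 was 11.1, 10.8 and 4.25 with GFP and 2.93, 3.51 and 4.78 with MAFG, which overlapped and did not pass. Counts and TPM of GLI2 thus differed in direction in SKMEL28, and the cause was not tested.

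GLI3, which acts mostly as a repressor once processed, was the member with the highest level in WM164. It lies on chromosome 7 from 41960949 to 42264100. GLI3 was at 138, 145 and 130 CPM in the WM164 controls and at 117, 115 and 116 with MAFG. The groups did not overlap, and the log2 fold change of -0.25 passed (standard error 0.06, adjusted p = 0.00203) but was lost on TPM, where it was -0.11 (adjusted p = 0.633 on the log2(TPM + 1) scale). In SKMEL28, GLI3 was at 39.5, 39.7 and 38.2 CPM with GFP and at 33.8, 35.8 and 38.7 with MAFG, with overlap and a log2 fold change of -0.12 (interval -0.27 to 0.04, adjusted p = 0.269). In A375, GLI3 was at 90.2, 84.5 and 80.8 CPM with GFP and at 99.1, 97.2 and 91.6 with MAFG. There the MAFG libraries were all above the controls, with a log2 fold change of 0.17 that did not pass (interval -0.05 to 0.38, adjusted p = 0.953).

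GLI1, whose transcription is the most used readout of the pathway, was low throughout. It lies on chromosome 12 from 57459785 to 57472268 and shares 5 exonic bases with ARHGAP9 on the opposite strand. GLI1 had 28, 26 and 28 reads in the WM164 controls and 36, 36 and 30 with MAFG. In SKMEL28 it had 12, 6 and 8 reads with GFP and 16, 3 and 12 with MAFG, and in A375 19, 3 and 0 with GFP and 14, 2 and 5 with MAFG. The log2 fold change was 0.24 in WM164 (interval -0.56 to 1.04, adjusted p = 0.684) and 0.16 in SKMEL28 (interval -1.24 to 1.57, adjusted p = 0.884), intervals that include a doubling in both lines. The TPM of GLI1 in WM164 was 0.35, 0.14 and 0.16 with GFP and 0.55, 0.43 and 1.34 with MAFG, groups that did not overlap but were too low to be tested on that scale. On counts, the intervals do not exclude a difference in GLI1 of the size seen for PTCH1.

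HHIP, a decoy that binds Hedgehog ligands at the cell surface and another readout of GLI activity, was at or near 0. It had at most 4 reads in the WM164 libraries, at most 7 in the SKMEL28 libraries and at most 21 in the A375 libraries. In A375 it had 6, 0 and 4 reads with GFP and 8, 10 and 21 with MAFG, groups that did not overlap, and it was not tested in any line. HHIP lies on chromosome 4 from 144646156 to 144745271, and the antisense gene HHIP-AS1 covers 6.81% of its exonic bases.

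SUFU, the cytoplasmic inhibitor of the GLI proteins, was at similar levels in all conditions. It lies on chromosome 10 from 102503972 to 102633535. SUFU ranged from 12.0 to 17.1 CPM over the 12 melanocytic libraries and from 16.5 to 23.0 in A375, and the MAFG and GFP libraries overlapped in each line. Its log2 fold changes were -0.06 in WM164 (interval -0.29 to 0.16, adjusted p = 0.707), 0.01 in SKMEL28 (interval -0.24 to 0.27, adjusted p = 0.955) and 0.10 in A375 (interval -0.21 to 0.40, adjusted p = 0.997). All 3 intervals lay within a change of 1 on the log2 scale, and the sign of each value was the opposite on TPM.

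GAS1, a membrane-anchored co-receptor that helps PTCH1 bind ligand, was a gene of the melanocytic lines. It lies on chromosome 9 from 86944362 to 86947506. GAS1 was at 6.18, 4.48 and 5.85 CPM in the WM164 controls and at 6.30, 4.88 and 5.19 with MAFG, with a log2 fold change of -0.01 (interval -0.37 to 0.35, adjusted p = 0.975). In SKMEL28 it was at 6.70, 5.76 and 5.28 CPM with GFP and at 6.91, 9.61 and 7.43 with MAFG. The SKMEL28 groups did not overlap, but the log2 fold change of 0.43 did not pass (interval 0.08 to 0.79, adjusted p = 0.0644). In A375, GAS1 had 14, 8 and 0 reads with GFP and 30, 15 and 9 with MAFG, with a log2 fold change of 1.19 that did not pass (interval -1.06 to 3.44, adjusted p = 0.997).

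GLIS3, a zinc finger factor related to the GLI family and best known from the pancreas and thyroid, was the reverse of GAS1 in its distribution. It lies on chromosome 9 from 3824127 to 4348392, and GLIS3-AS1 covers 1.25% of its exonic bases. GLIS3 was at 47.9, 38.9 and 42.6 CPM in the A375 controls and at 43.98, 45.02 and 46.8 with MAFG, with a log2 fold change of 0.07 (interval -0.19 to 0.32, adjusted p = 0.997). In WM164 it had 10, 5 and 7 reads with GFP and 17, 14 and 10 with MAFG. In SKMEL28 it had 9, 6 and 8 reads with GFP and 0, 3 and 2 with MAFG, which is at least 2.72-fold lower against a floor of 3 counts per library.

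**Figure D2:**
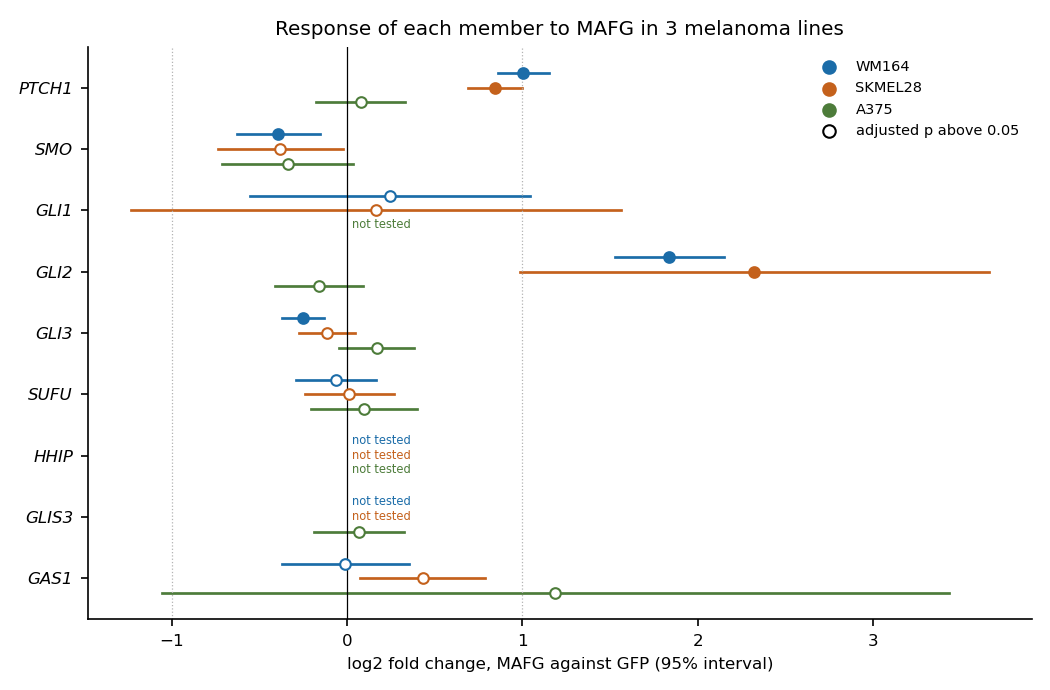
Log2 fold change of MAFG against GFP (x axis) with its 95% interval for each of the 9 genes (y axis) in the 3 lines. Filled points passed at an adjusted p of 0.05 or less, dotted lines mark -1 and 1, and genes with too few counts are marked as not tested. PTCH1 is at 1.004, 0.85 and 0.08 and GLI2 at 1.84, 2.32 and -0.16 in WM164, SKMEL28 and A375.

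Whether the response to MAFG differed between lines was tested as a contrast of log2 fold changes in one model of all 18 libraries, for the 8 members tested there. Between WM164 and A375, 9.21% of all genes passed, and 3 of the 8 members did. The response of PTCH1 was greater in WM164 than in A375 by 0.92 (interval 0.65 to 1.196, adjusted p = 5.57e-05) and that of GLI2 by 1.99 (interval 1.51 to 2.47, adjusted p = 4.19e-06). The response of GLI3 differed by -0.42 (interval -0.63 to -0.22, adjusted p = 0.00802), being negative in WM164 and positive in A375. On the TPM scales the difference for GLI3 did not pass (adjusted p = 0.731 and 0.744 with pseudocounts of 1 and 0.1).

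Between SKMEL28 and A375, 9.51% of all genes and 3 of the 8 members passed. PTCH1 responded more in SKMEL28 by 0.76 (interval 0.49 to 1.03, adjusted p = 6.02e-04) and GLI2 by 2.51 (interval 1.66 to 3.36, adjusted p = 3.22e-04). GLI2 did not pass on either TPM scale (adjusted p = 0.236 and 0.473). GLIS3 differed by -2.29 (interval -3.50 to -1.07, adjusted p = 0.0150) on the few reads given above for SKMEL28, and did not pass on TPM (adjusted p = 0.557 and 0.385) or without the first SKMEL28 MAFG library (adjusted p = 0.0716). The difference of GLI3, -0.29, did not pass (interval -0.50 to -0.08, adjusted p = 0.0810), but did under DESeq2 (adjusted p = 0.0400).

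Between WM164 and SKMEL28, 13.7% of all genes passed and 1 of the 8 members. That was GLIS3, with a difference of 3.03 (interval 1.63 to 4.44, adjusted p = 0.00400), from at most 17 reads in any of the 12 libraries. It did not pass on TPM (adjusted p = 0.358 and 0.0955). GLIS3 had too few counts to be tested within WM164 or SKMEL28. It entered the joint model through its counts in A375, a line outside this contrast, so no response is read from this call. PTCH1 differed by 0.16 (interval -0.11 to 0.43, adjusted p = 0.493) and GLI3 by -0.13 (interval -0.35 to 0.08, adjusted p = 0.461). GLI2 differed by -0.52 on counts (interval -1.41 to 0.38, adjusted p = 0.514) but by 1.38 on the log2(TPM + 1) scale (adjusted p = 0.0260). The other members, SMO, GLI1, SUFU and GAS1, did not pass in any of the 3 contrasts, and HHIP was not tested. These contrasts share libraries and are not independent of each other.

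The lines also differed in the GFP controls. Between WM164 and A375, where 71.5% of all genes passed, 7 of the 8 members did. WM164 controls were higher than A375 controls for PTCH1 (0.59), SMO (0.85), GLI1 (2.32), GLI3 (0.69) and GAS1 (4.77), and lower for GLI2 (-2.50) and GLIS3 (-7.33), in log2 differences. The largest adjusted p among them was 0.0199, for GLI1, which no longer passed without A375 GFP library 2 or 3 (adjusted p = 0.0770 and 0.0596). On the TPM scales, 4 of 7 members tested passed. PTCH1, SMO and GLI3 did not pass there, while GLI2, GLIS3 and GAS1 did, as did SUFU, which had not passed on counts. GLI1 was not tested on TPM.

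Between SKMEL28 and A375, where 68.6% passed, 7 of the 8 members did as well. SKMEL28 controls were higher for PTCH1 (0.60) and GAS1 (4.88) and lower for SMO (-0.38), GLI2 (-7.09), GLI3 (-1.12), SUFU (-0.39) and GLIS3 (-7.20). The calls of SMO and SUFU were the weakest (adjusted p = 0.0373 and 0.0145). SMO lost its call without A375 GFP library 1 or 3 or SKMEL28 GFP library 2 or 3 (adjusted p from 0.0973 to 0.149), and SUFU without the first SKMEL28 GFP library (adjusted p = 0.0911). On TPM, PTCH1 did not pass and SUFU had the opposite sign. Between the melanocytic lines, where 56.8% passed, 3 of the 8 members did, with SMO (1.23), GLI2 (4.59) and GLI3 (1.82) higher in WM164, of which GLI2 did not pass on TPM. PTCH1 was at nearly equal levels in the controls of both (log2 difference -0.01, interval -0.20 to 0.19, adjusted p = 0.969).

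Levels can be compared between genes only per length, for which the deposited TPM was used. In the WM164 controls GLI3 came first with 13.9 ± 2.31 TPM (SD, n = 3), followed by PTCH1 with 5.31 ± 0.557, SMO with 2.68 ± 0.601 and SUFU with 2.03 ± 0.537. SMO and SUFU overlapped, and the other neighbours in this order down to GAS1, at 1.01 ± 0.11, did not. With MAFG, GLI3 at 12.8 ± 1.06 and PTCH1 at 11.4 ± 0.551 TPM overlapped in WM164. GLI2 came next with 2.59 ± 0.919 TPM, overlapping SUFU, after a level of 0.373 ± 0.0551 in the controls. In WM164, the TPM of PTCH1, GLI1 and GLI2 did not overlap between MAFG and GFP, each being higher with MAFG.

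In the SKMEL28 controls PTCH1 at 5.88 ± 0.897 and GLI3 at 5.34 ± 0.761 TPM overlapped, and with MAFG PTCH1 stood alone in first place at 11.1 ± 2.18. SUFU followed GLI3 in both conditions, with 3.42 ± 0.611 and 3.03 ± 0.4 TPM. In the A375 controls GLI3 at 10.6 ± 1.37, GLIS3 at 8.99 ± 1.71, GLI2 at 8.73 ± 3.88, PTCH1 at 5.37 ± 1.92, SUFU at 3.32 ± 0.609 and SMO at 2.48 ± 0.836 TPM each overlapped the next in the order. With MAFG, the first 2 in A375 were GLI3 at 11.05 ± 2.22 and GLIS3 at 9.87 ± 2.97 TPM. The TPM of SMO was lower with MAFG without overlap in SKMEL28 and in A375. GLI1 and HHIP were under 1 TPM on average in each of the 6 conditions.

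**Figure D3:**
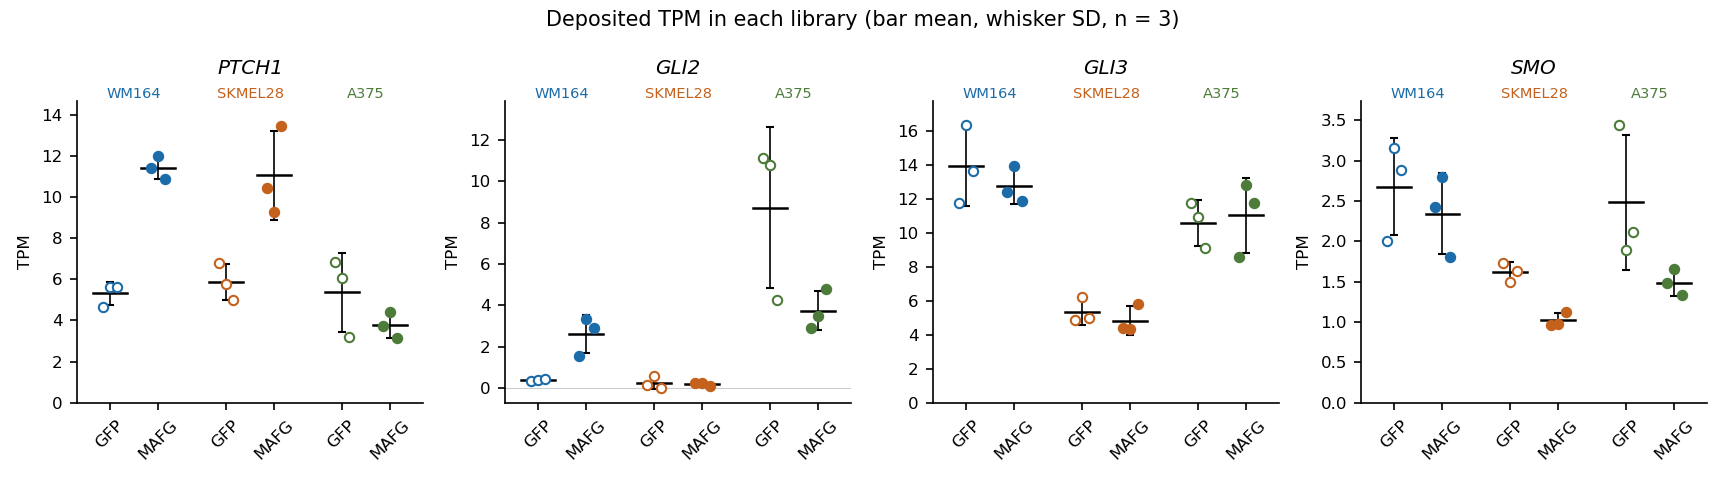
Deposited TPM (y axis) of PTCH1, GLI2, GLI3 and SMO in every library by line and condition (x axis). Open points are GFP and filled points MAFG libraries, bars are means and whiskers SDs of 3 libraries. PTCH1 is above its controls with MAFG in WM164 and SKMEL28, while GLI2 in A375 spreads from 4.25 to 11.1 TPM among the GFP libraries.

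The other genes of the pathway were counted in lists chosen by function, with earlier results of these data known, so the counts are not independent support. Beside each list stand the shares of all genes tested. In WM164 these were 16.2% passing higher and 15.6% lower, in SKMEL28 14.6% and 15.3%, and in A375 0.78% and 0.0634%. Of 15 genes known as GLI targets in other systems, 10 were tested in WM164, and 8 passed higher and 0 lower with MAFG, 3 of them differentially expressed, with a median log2 fold change of 0.68. By smallest adjusted p these were FOXF1, a mesenchymal forkhead factor (log2 fold change 3.63, adjusted p = 1.72e-09), SFRP1, a secreted Wnt antagonist (0.75, adjusted p = 2.46e-08), and CCND1, the G1 cyclin D1 (0.55, adjusted p = 9.03e-08). FOXF1 had 37, 40 and 10 reads with GFP and 330, 383 and 421 with MAFG. The other genes of the list that were differentially expressed, named after their values were seen, were NKX2-2, a homeobox factor of the ventral neural tube, and MYCN, a MYC family factor. NKX2-2 had 2, 7 and 3 reads with GFP and 96, 65 and 56 with MAFG (log2 fold change 4.08, adjusted p = 4.34e-06). MYCN had 0 in all control libraries and 60, 29 and 47 with MAFG, which is at least 14.2-fold higher against a floor of 3 counts per library. NKX2-2 and MYCN had enough counts to be tested only in the MAFG libraries. They could therefore add only to the genes higher with MAFG, and the count of 8 higher and 0 lower is in part set by the filter. On the TPM scales 5 (log2(TPM + 1)) and 4 (log2(TPM + 0.1)) passed higher, and without single libraries 6 to 8.

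In SKMEL28, 7 genes of that list were tested, and CCND1 (0.50, adjusted p = 5.28e-06) passed higher and BCL2, an inhibitor of apoptosis, lower (-0.42, adjusted p = 0.0163), with a median of 0.15. BCL2 lost its call without the first or second GFP or the second MAFG library (adjusted p from 0.0511 to 0.0946). FOXF1 had at most 3 reads and MYCN 0 in the SKMEL28 libraries. In A375, 12 were tested and 1 passed higher, SFRP1 (1.14, adjusted p = 0.00141), which did not pass on TPM, with a median of -0.03. NKX2-2 had 27, 44 and 21 reads with GFP and 53, 50 and 57 with MAFG in A375 and did not pass. Many of these genes have other known regulators, so that a count over the list is not a measure of GLI activity.

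Genes of ligand release showed little. Of 9, which include the ligand genes and those for lipid attachment and export, 6 were tested in WM164 and 1 passed higher, DISP2, a dispatched family member (0.64, adjusted p = 0.0357), with a median of 0.32. That is near the 16.2% of all genes that passed higher in WM164. DISP2 did not pass under DESeq2 (adjusted p = 0.0753), with the replicate block (adjusted p = 0.0542), in the model of all 18 libraries, or without 5 of the 6 libraries in turn, the first GFP library being the exception. In SKMEL28 and A375 4 were tested in each and 0 passed by edgeR, with 0 at an unadjusted p under 0.05 and 0 under DESeq2, and medians of -0.09 and 0.09. Of the ligand genes, named after their values were seen, SHH had at most 5 reads and IHH at most 12 in any library, and DHH had 23 to 44 reads in WM164.

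Of 8 co-receptors and modulators of the receptor, LRP2, a large endocytic receptor that binds SHH, rose in both melanocytic lines. LRP2 had 357, 558 and 361 reads in the WM164 controls and 2816, 2594 and 2765 with MAFG (log2 fold change 2.61, adjusted p = 2.44e-12). In SKMEL28 it had 91, 68 and 78 reads with GFP and 582, 557 and 549 with MAFG (2.73, adjusted p = 4.85e-10), and in A375 0 in all libraries. LRP2 was the gene that passed among 6 tested in WM164, where the median was -0.11. In SKMEL28, 7 were tested, and 2 passed higher and 3 lower, with a median of 0.05. BOC, a co-receptor, fell by 1.29 on the log2 scale (adjusted p = 1.09e-06). MOSMO and MGRN1, which limit SMO at the membrane, are named after their values were seen. MOSMO fell by 0.69 (adjusted p = 9.50e-05). MGRN1 rose by 0.19 (adjusted p = 0.0224), but did not pass without the first GFP or the first MAFG library (adjusted p = 0.102 and 0.0753) or in the joint model (adjusted p = 0.101), and had the opposite sign on TPM. In A375, 6 were tested and 0 passed by edgeR, with 1 at an unadjusted p under 0.05 and 0 under DESeq2, and a median of 0.23.

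Of 22 genes of the cilium and of GLI processing, 22 were tested in WM164, and 0 passed higher and 3 lower, with a median of 0.000681. Among all genes tested in WM164, 16.2% passed higher and 15.6% lower, so the 3 lower are near the share over all genes. PRKACB, a catalytic subunit of protein kinase A, fell by 0.46 on the log2 scale (adjusted p = 7.85e-05), TULP3, an adaptor for ciliary membrane proteins, by 0.28 (adjusted p = 0.00707) and IFT172, an intraflagellar transport subunit, by 0.34 (adjusted p = 0.0140). IFT172 lost its call without the second GFP or the first MAFG library (adjusted p = 0.101 and 0.0538), and the 3 did not pass on TPM. In WM164, 1 gene passed higher without the first GFP library, without a count filter and with at least 10 counts in every library. In SKMEL28, 21 were tested, and 5 passed higher and 5 lower, with a median of -0.05. The smallest adjusted p belonged to DYRK2, a kinase (-0.73, adjusted p = 2.36e-06), CSNK1A1, casein kinase 1 alpha (-0.33, adjusted p = 1.71e-04), and EVC, a ciliary partner of SMO (0.49, adjusted p = 3.16e-04). Without single libraries, 3 to 5 passed higher and 2 to 4 lower. On both TPM scales 0 passed higher and 3 lower, and in the joint model 2 higher and 3 lower. In A375, 21 were tested and 0 passed by edgeR, with 1 at an unadjusted p under 0.05 and 0 under DESeq2, and a median of 0.00438.

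Of 7 zinc finger genes related to the GLI family, 5 were tested in SKMEL28, where 3 of the ZIC genes passed higher and 0 lower, with a median of 0.56. GLIS2, named after its values were seen, had a log2 fold change of -0.62 that missed the threshold (interval -1.11 to -0.14, adjusted p = 0.0506). In SKMEL28, 1 gene passed lower with at least 10 counts in every library, without the third MAFG library and in the joint model, and in WM164 1 did in the joint model. ZIC2 (1.45, adjusted p = 6.58e-05), ZIC1 (0.56, adjusted p = 1.30e-04) and ZIC5 (2.51, adjusted p = 0.00150) rose, ZIC5 from 17, 1 and 11 reads with GFP to 65, 61 and 45 with MAFG. ZIC5 reached the count filter through its MAFG libraries. In WM164 5 and in A375 4 were tested and 0 passed by edgeR, with 1 and 0 at an unadjusted p under 0.05 and 0 under DESeq2, and medians of 0.06 and -0.10.

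**Figure D4:**
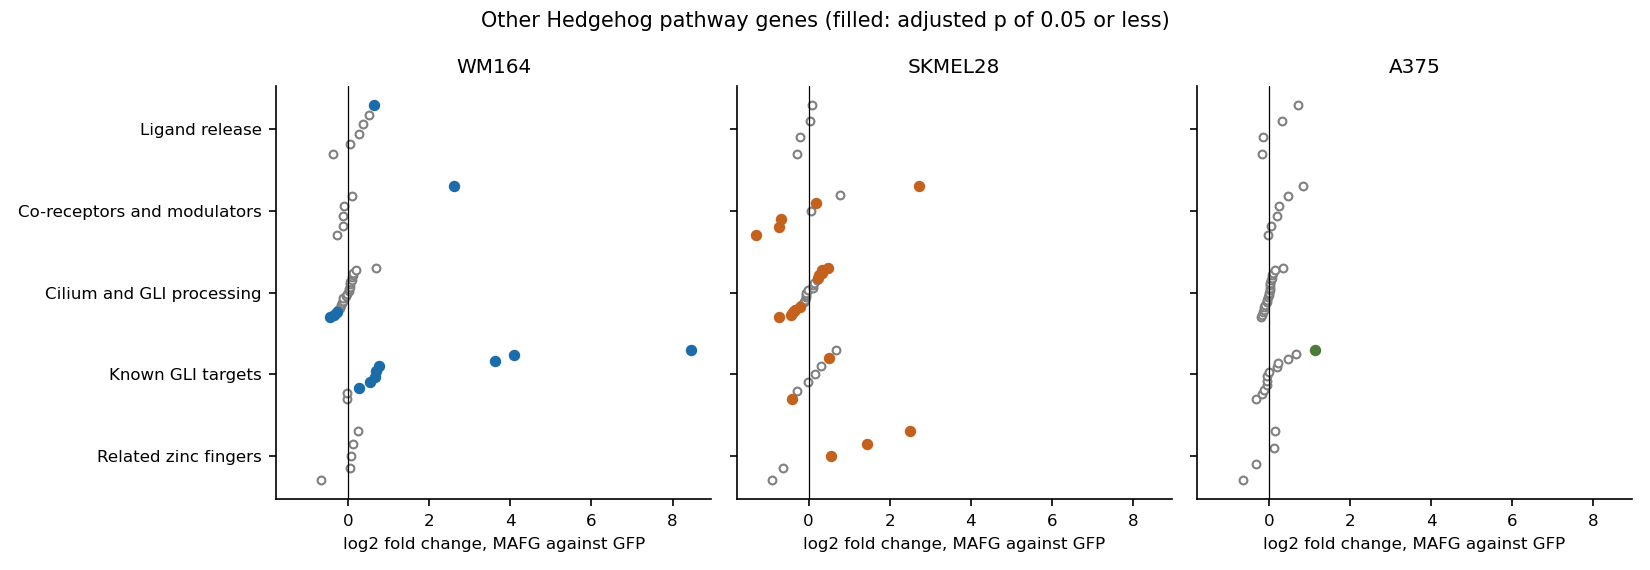
Log2 fold change of MAFG against GFP (x axis) of the tested genes of 5 lists (y axis) in each line, 1 point per gene. Filled points passed at an adjusted p of 0.05 or less. In WM164, 8 of the 10 known GLI targets lie to the right of 0 and are filled, the lowest of the list is at -0.04, and the point farthest right is MYCN, whose position is a fitted value because its control libraries are at 0.

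Markers of cell types moved with MAFG beside these genes, and their part in the results was not tested. The summed level of 7 melanocyte lineage markers was 4695 to 5029 CPM in the WM164 controls and 2638 to 2767 with MAFG, where 5 of 7 passed lower. In SKMEL28 it was 4789 to 5046 and 4161 to 4387 CPM, with 1 passing higher and 3 lower, and in A375 35.3 to 41.6 and 120 to 172 CPM, with 1 passing higher, SOX10, and with MLANA and TYR at 0 in all libraries. The summed level of 5 fibroblast markers was 20.03 to 20.57 and 12.6 to 13.3 CPM in WM164 (2 passing higher and 1 lower), 11.03 to 12.39 and 18.3 to 21.3 in SKMEL28 (1 passing higher) and 10.7 to 13.3 and 11.6 to 13.6 in A375. LUM made up most of the WM164 sum, with a mean of 17.9 CPM with GFP and 8.96 with MAFG. PDGFRB (0.232 to 1.99 CPM) and COL1A2 (0.116 to 0.507 CPM) passed higher there, from at most 12 and 7 reads per control library. In SKMEL28, LUM was the 1 marker of this list tested. Of 5 keratinocyte markers, which summed to 7.54 to 69.7 CPM, KRT1 was at 0 throughout and KRT10 made up most of the sum. KRT10 was the 1 marker of that list tested, and it passed lower in WM164 (-0.61, adjusted p = 0.00244) and did not pass in SKMEL28 or A375. The 4 leukocyte markers summed to at most 1.047 CPM and the 3 endothelial markers to at most 1.035 CPM in any library. In bulk RNA, fewer cells of a type and less RNA per cell cannot be told apart.

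As a description of the 18 libraries, the genes whose log2 CPM was most like that of each member were found over all tested genes. The libraries share lines, so that these correlations mostly describe differences between the 3 lines. GLIS3 was most like PCDHB6 (Pearson r = 0.996), HBEGF (0.990) and FADS2 (0.989), GLI3 most like ISL2 (0.994), GLUL (0.990) and TM4SF19 (0.989), and GAS1 most like LINC00963 (0.983), ANKRD6 (0.983) and UPP1 (0.978). GLI2 was most like CORO2A (0.981), DNTTIP1 (0.977) and NDRG1 (0.977), and PTCH1 most like FAM19A5 (0.945), SEC24D (0.941) and TMEM158 (0.923). SMO was most like TMEM94 (0.958), RAB4A (0.951) and BBS2 (0.947). GLI1, most like SEC31B (0.918), ADA (0.916) and AC062037.3 (0.915), and SUFU, most like SPN (0.901), AL031587.5 (0.887) and AC142381.3 (0.879), had the lowest values. Among the members themselves, GLIS3 and GAS1 had r = -0.934, SMO and GLI3 0.835, and PTCH1 and GLI2 -0.28, with GLI2 highest and PTCH1 lowest in A375.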

How the data were processed

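The authors transduced the cells and sequenced total RNA from 18 libraries in 6 conditions. According to the study's methods, read pairs were trimmed, aligned to GRCh38 with STAR, and uniquely aligned reads were counted per gene with featureCounts. The submitters' processing notes list cutadapt 1.8.1, STAR 2.7.7a, RSEM 1.3.0 and DESeq2. The deposited count values are whole numbers without normalization. The deposited TPM values, which the authors scaled for gene length and to the same sum in each library, have no tool stated for these lines. The labels name a kit without strand and the methods a stranded one, and the strand setting and the annotation release are not given in the sources used here. All sample columns were assigned, with 0 left unused.

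The MAFG and GFP libraries of a line were compared on counts with edgeR 4.0.16 in R 4.3.3 (TMM, filterByExpr, quasi-likelihood F test). Response differences and control levels were tested as contrasts in a joint model of the 18 libraries. The standard error is the absolute log2 fold change divided by the square root of F, and intervals are at 95%. A gene with at most 3 counts in each library of a condition was taken to be at the floor. Intervals cover counting error and library spread only. A fold against the floor is the mean CPM of the higher group over that of 3 counts, and covers neither. Alternatives were DESeq2 1.42.0, edgeR with DESeq2's size factors, without the filter or with a filter of 10 counts per library, a replicate block, the joint model for each line, and each library left out. Limma 3.58.1 was run on TPM with a pseudocount of 1 or 0.1, for genes that reached a TPM of 1 in 3 libraries. Positions are from GENCODE on GRCh38 and promoters from RefSeq on GRCh38.p14. Beyond the 9 members, the text names up to 3 genes per list and line with the smallest adjusted p, the 3 genes most like each member, label checks and overlapping genes. The values of 1 gene that this rule names are not reported here. The members and lists were chosen with earlier results of these data known. The tests were checked on simulated data, in which the changed genes were all above a minimum level. The recovery of changes in genes with few reads was therefore not checked. Figures were drawn with matplotlib 3.10.9.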

Additional observations from a re-analysis of the deposited data

Results flagged for a closer look

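The responses of 4 members to MAFG differed between lines by the test of the difference itself, edgeR's contrast in a model of the 18 libraries. For PTCH1 the response was higher in WM164 than in A375 by 0.9232 (adjusted p = 5.57e-05) and in SKMEL28 than in A375 by 0.7604 (adjusted p = 6.02e-04), in log2 fold change. PTCH1 was above its controls in 3 of 3 libraries in both melanocytic lines, and the groups overlapped in A375. For GLI2 the difference was 1.993 between WM164 and A375 (adjusted p = 4.19e-06) and 2.51 between SKMEL28 and A375 (adjusted p = 3.22e-04), the latter from 1 to 30 reads per SKMEL28 library. For GLI3 the response in WM164 minus that in A375 was -0.423 (adjusted p = 0.00802), with the MAFG libraries all below the controls in WM164 and all above them in A375. For GLIS3 the response in WM164 minus that in SKMEL28 was 3.033 (adjusted p = 0.00400), and in SKMEL28 minus A375 it was -2.288 (adjusted p = 0.0150), from at most 17 reads in any library of the melanocytic lines. GLIS3 could be tested in the joint model only through its counts in A375, so no response is read from these 2 calls. No cause of these differences was tested. In A375 the overexpressed gene MAFG itself missed the threshold on counts (log2 fold change 0.80, adjusted p = 0.0655, edgeR), while its deposited TPM was 3.94 to 4.52 with GFP and 22.4 to 28.2 with MAFG. On counts, the response of MAFG did not pass a test of difference from A375 in WM164 (0.23, interval -0.19 to 0.65, adjusted p = 0.597) or in SKMEL28 (-0.18, interval -0.60 to 0.25, adjusted p = 0.693).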

How the results depend on the processing

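Of the 992 recomputed log2 values of the members, 931 kept direction and side of the threshold, 32 lost a call and 1 gained one. The other 28 changed sign, and none of these was past the threshold both before and after. Among them, the response of GLI2 in WM164 minus SKMEL28 passed on log2(TPM + 1) (adjusted p = 0.0260, limma). Control differences that had not passed, and responses of members that passed in no response contrast, are not among these values. Calls gained there were therefore not counted, such as that of SUFU between the WM164 and A375 controls on TPM. The member counts moved by over 1.5 times in 22 of 234 recomputations, and the list counts in 43 of 420. With limma on log2(TPM + 1) and log2(TPM + 0.1), members that passed numbered 2 and 2 in WM164 (against 4) and 1 and 1 in SKMEL28 (against 2). Between SKMEL28 and A375 the responses of 1 and 1 passed (against 3), between WM164 and SKMEL28 0 passed on log2(TPM + 0.1) (against 1), and for the controls of WM164 and A375 4 and 4 passed (against 7). Differentially expressed members on TPM numbered 1 in WM164 with a pseudocount of 1 (against 2), and 0 in SKMEL28 with either (against 1). The cause was not tested. Without a count filter, 1 was differentially expressed in WM164, where PTCH1 lies on the limit. With at least 10 counts in every library, for which fewer members were tested, 1 passed and 0 were differentially expressed in SKMEL28. Under that filter 0 responses passed between WM164 and SKMEL28, 1 between SKMEL28 and A375, and 3 and 4 control levels against A375 in WM164 and SKMEL28. In one model of all 18 libraries, 2 of 8 members tested were differentially expressed in SKMEL28. Leaving out single libraries left 1 to 2 differentially expressed members in WM164.

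Changes of sign came mostly from TPM, given here for pseudocounts of 1 and 0.1. In MAFG against GFP they were 0.22 and 0.31 for SUFU and 0.0899 and 0.16 for GAS1 in WM164, -0.13 and -0.16 for SUFU in SKMEL28, -0.38 and -0.45 for PTCH1 and -0.0460 and -0.0569 for SUFU in A375, and -0.0107 and -0.0112 for MGRN1 in SKMEL28. The response in WM164 minus SKMEL28 became 1.38 and 2.27 for GLI2 and 0.0156 and 0.0312 for GLI3, and the control level of SUFU in SKMEL28 minus A375 became 0.0309 and 0.0390. Leaving out single libraries gave ranges across 0 of -0.14 to 0.0394 for SUFU and -0.15 to 0.0825 for GAS1 in WM164, -0.22 to 0.59 for GLI1 and -0.0920 to 0.0794 for SUFU in SKMEL28, -0.000416 to 0.20 for SUFU and -0.0133 to 0.15 for GLIS3 in A375, and -0.89 to 0.0197 for the response of GLI2 in WM164 minus SKMEL28.

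Same-numbered libraries did not deviate together (correlations of -0.0326 to 0.0120), so the numbers were not taken as pairs. With a replicate block, 4, 2 and 0 members passed in WM164, SKMEL28 and A375, as without it. Depth limits GLI1, HHIP, GLI2 in SKMEL28, GLIS3 in WM164 and SKMEL28, and GAS1 in A375, all at 36 reads or fewer per library. Over all genes, 133 passed in A375, 64 with the block, 248 by DESeq2, 328 without a filter, 84 with at least 10 counts, 506 in the joint model, 19 and 15 on TPM, and 59 to 393 without single libraries. On TPM, 1918 and 1853 passed in WM164 (against 5065) and 2575 and 2542 in SKMEL28 (against 4640), and in the joint model 3022 and 3038.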
